A study of Mus musculus with 79 samples.

Results

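The genes described here are 9 genes of the extracellular matrix and its remodelling: the matrix proteins Sparc, Fn1 and Postn, the crosslinking enzymes Lox and Pxdn, the protease Mmp2, the protease inhibitors Timp1 and Timp4, and the growth factor Tgfb1. They were taken by symbol from the 22335 gene symbols of the table, and each of the 9 had 1 probeset. Whole quadriceps RNA from the BXD family, a panel of inbred mouse strains bred from C57BL/6J and DBA/2J, was measured on 79 Affymetrix arrays, 42 of strains on chow diet (CD) and 37 of strains on high fat diet (HFD). The HFD cohorts changed to that diet at 8 weeks of age, both groups were fasted overnight and sacrificed at 29 weeks, and the labels name no allele beyond the strain. The labels give no sex, and the study describes its large BXD phenotyping cohorts as males. The 42 strains were 40 BXD strains and both parents. Arrays of both diets existed for 37 of them, and the remaining 5 were measured on CD alone. Each array held a pool of about 5 mice of 1 strain on 1 diet, so strains are the replicates of a diet and the spread between mice of a strain was not measured. Values are the deposited scores, a log-type measure in which each array was brought to the mean 8 and the SD 2. The log base before that scaling is not given in the sources used here, so differences are given in score units rather than as folds, and scores of different probesets are not compared as levels.

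The extracellular matrix of muscle is the collagen-rich sheath around fibres, bundles and vessels, made mostly by fibroblasts and strengthened at basement membranes by collagen IV and laminin. Secreted glycoproteins such as SPARC, fibronectin and periostin guide how collagen fibrils assemble and how cells attach, and enzymes then crosslink the fibres. Matrix metalloproteinases cut this network, tissue inhibitors of metalloproteinases (TIMPs) restrain them, and TGF-beta 1 is the best known growth factor that raises matrix synthesis. Adipose tissue growth in obesity is accompanied by matrix remodelling, and quadriceps samples can hold fat and vessel cells beside the muscle fibres.

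The promoters of Sparc, Postn and Pxdn are shown because they were higher in HFD and were correlated with each other on both diets. The sequences are the 250 bases before the RefSeq gene start on build GRCm38.p6, with capitals marking matches to 3 motifs searched on both strands. The motifs were a TATA box (TATAAA), a GC box (GGGCGG) and an AP-1 site (TGANTCA). They do not overlap one another in these promoters.
Sparc, chr11:55420081-55420330, minus strand: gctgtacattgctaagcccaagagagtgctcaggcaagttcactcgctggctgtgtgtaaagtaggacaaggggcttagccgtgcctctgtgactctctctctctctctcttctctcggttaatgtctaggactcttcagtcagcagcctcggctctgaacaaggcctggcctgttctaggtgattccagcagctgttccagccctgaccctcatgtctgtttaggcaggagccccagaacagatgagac
Postn, chr3:54360857-54361106, plus strand, the second of 2 listed starts: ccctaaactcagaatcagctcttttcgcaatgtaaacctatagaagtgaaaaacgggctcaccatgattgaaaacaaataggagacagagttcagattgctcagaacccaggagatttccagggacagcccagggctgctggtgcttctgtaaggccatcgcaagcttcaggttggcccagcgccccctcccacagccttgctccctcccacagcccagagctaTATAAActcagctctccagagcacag
Pxdn, chr12:29937786-29938035, plus strand: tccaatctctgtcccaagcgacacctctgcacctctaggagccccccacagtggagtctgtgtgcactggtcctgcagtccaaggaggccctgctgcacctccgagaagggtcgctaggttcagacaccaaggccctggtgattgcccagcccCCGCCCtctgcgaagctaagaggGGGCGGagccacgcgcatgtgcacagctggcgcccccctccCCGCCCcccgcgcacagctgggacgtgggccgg
The 3 promoters had no motif in common. The Postn start shown carried a TATA box whose first base lay at position -26, while the window of its other listed start, with 40.4% G and C, held none of the 3 motifs. A TATA box was in 12.4% of 32851 promoters of the same length. Pxdn held 3 GC boxes, starting at -97, -74 and -33, in a promoter with 68% G and C, where the mean over all promoters was 53.2%. GC boxes were found in 32.7% of all promoters, and also in those of Timp1, with 1, and Tgfb1, with 5. An AP-1 site was in 6.75% of all promoters and in none of the windows of the 6 members matched, which were Sparc, Postn, Pxdn, Timp1, Timp4 and Tgfb1.

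To ask how the diet moved these genes, HFD was compared with CD over all arrays. Postn and Sparc rose most, by 0.52 and 0.30 units, and Lox, Pxdn, Timp1 and Tgfb1 rose by 0.09 to 0.18 units. Fn1, Mmp2 and Timp4 did not pass the test. Thus 6 of the 9 genes were called, all of them higher in HFD, by limma with diet and batch as terms and a Benjamini-Hochberg adjusted p below 0.05. Of all 35556 probesets 38.1% were called, 18.9% higher and 19.3% lower in HFD, so a call by itself is common here and the median difference of all probesets was -0.000663. The split was 18.3% higher and 19.1% lower after quantile normalisation, 23.1% and 16.2% with arrays centred on their medians, and 17.1% and 12.6% over the brighter probesets alone. Since the arrays are of bulk muscle, fewer cells of a type and less RNA per cell cannot be told apart in any of these differences.

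**Figure D1:**
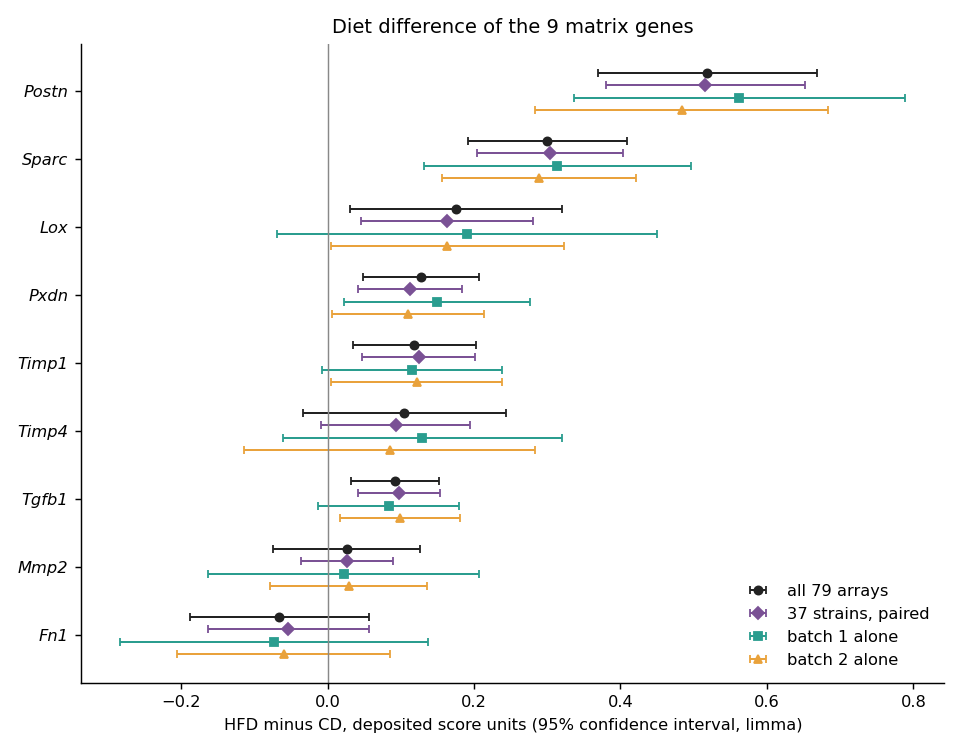
Difference between diets for each gene in score units (horizontal axis), with 95% confidence intervals from limma, over all 79 arrays, over the 37 strains with strain as a block, and in each array batch alone. Postn and Sparc lie clear of 0 in every set of arrays, while the intervals of Fn1, Mmp2 and Timp4 include 0 in every set.

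The titles gave 2 batches with a separate date for each, and they do not say which step was done in batches. In batch 1 alone (35 arrays) Postn was 0.56 units higher in HFD and in batch 2 alone (44 arrays) 0.48 units higher, and Sparc was 0.31 and 0.29 units higher, and all of these passed the test. Lox (0.19 and 0.16), Pxdn (0.15 and 0.11), Timp1 (0.12 and 0.12) and Tgfb1 (0.08 and 0.10) kept their direction in each batch but did not pass in either. The batch term itself reached an unadjusted p below 0.05 for 0 of 35556 probesets, with 0.266 as the smallest p, and the interaction of diet and batch for 0, with 0.134 as the smallest, and limma called 0 for both. The deposited values thus hold almost no difference between the batches within a diet, and whether they had been adjusted for batch is not given in the sources used here. For that reason the differences in the 2 batches are not separate measurements of the diet.

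Postn (probeset 10492021) encodes periostin, a matricellular protein of collagen-rich and remodelling tissue. On CD its lowest, median and highest scores were 7.73 (C57BL/6J), 8.41 and 9.05 (BXD56), with a mean of 8.40 ± 0.30 (SD, n = 42). On HFD they were 8.12 (BXD80), 8.95 and 9.78 (BXD79), with a mean of 8.92 ± 0.37 (SD, n = 37). The groups overlapped, but the median HFD strain lay near the top of the CD range. The difference was 0.52 (SE 0.075, limma adjusted p = 3.02e-08), and 31 of 37 strains were higher on HFD. The difference ran from -0.15 in BXD56, the highest strain on CD, to 1.36 in C57BL/6J and BXD62, the lowest and second lowest on CD. Each is 1 pool minus 1 pool, so strains that differ in their rise cannot be told apart from variation between pools.

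Sparc (probeset 10386058) encodes osteonectin, a collagen-binding glycoprotein that takes part in collagen fibril assembly and is also secreted by adipocytes. Its CD scores ran from 12.43 (BXD100) over a median of 12.86 to 13.33 (BXD66), and the mean was 12.86 ± 0.23 (SD, n = 42). On HFD the lowest, median and highest were 12.29 (BXD61), 13.15 and 13.65 (BXD51), and the mean was 13.16 ± 0.25 (SD, n = 37). The groups overlapped. BXD61 stood apart on HFD, since the next lowest strain had 12.75. Sparc was 0.30 higher in HFD (SE 0.054, limma adjusted p = 5.88e-06) and higher in 32 of 37 strains. Without BXD61 the difference was 0.32.

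Fn1 (probeset 10355403) encodes fibronectin, the cell-adhesive glycoprotein on which other matrix proteins assemble. Its scores overlapped almost fully between diets, from 10.77 over a median of 11.39 to 11.94 on CD and from 10.65 over 11.39 to 11.77 on HFD. The difference was -0.07 (95% confidence interval -0.19 to 0.06, limma adjusted p = 0.42), and 14 of 37 strains were higher on HFD. BXD61 fell the furthest, from 11.81, the second highest CD score, to 10.65, the lowest HFD score, and without it the difference was -0.04 (adjusted p = 0.661).

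**Figure D2:**
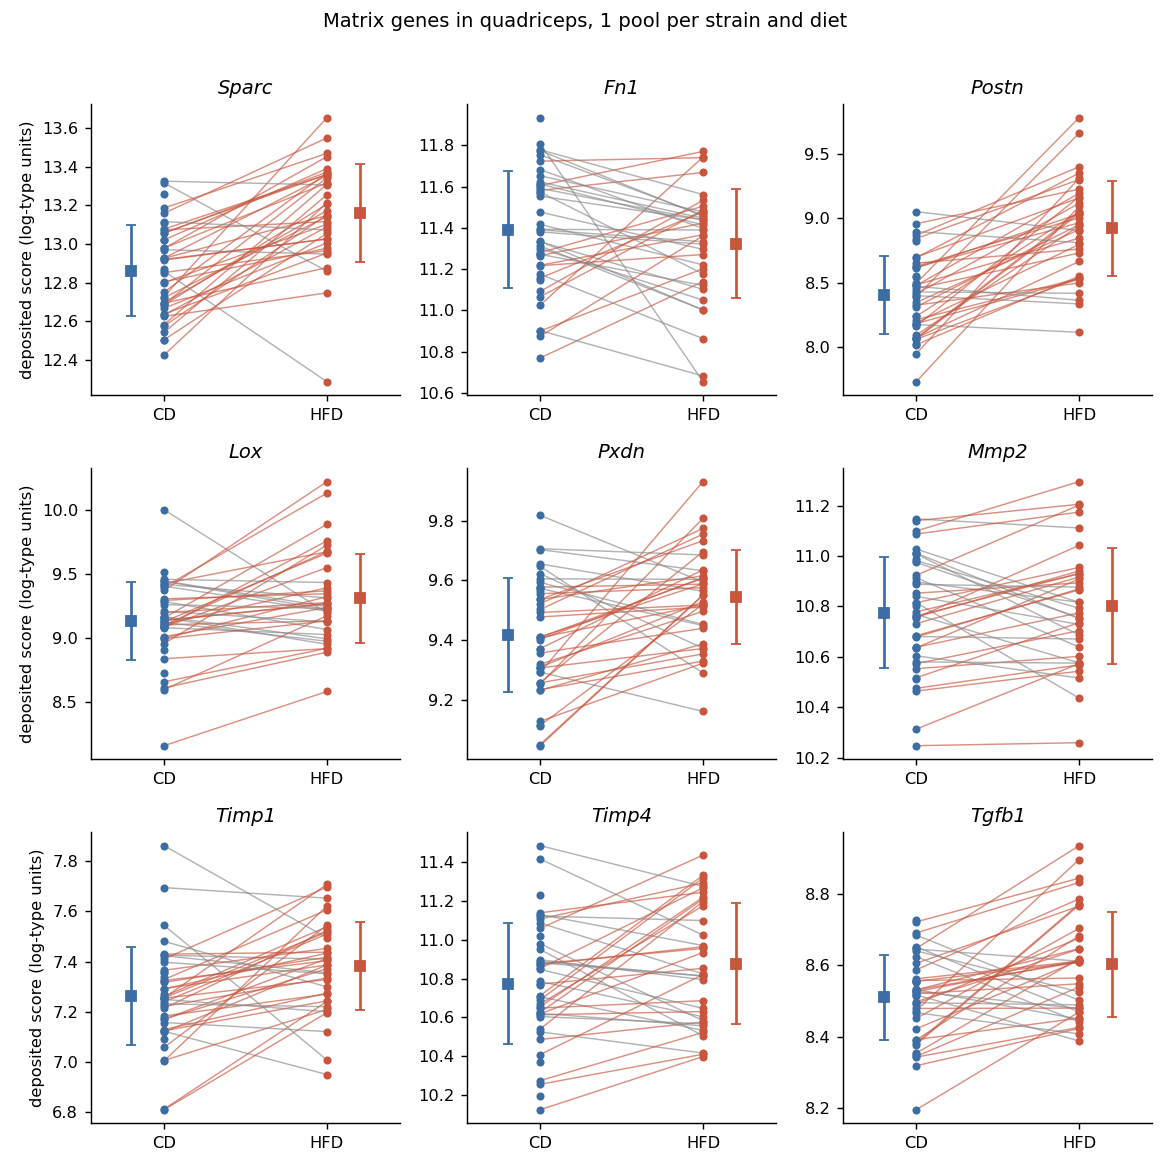
Score of each gene (vertical axis, score units, a separate scale per gene) on CD and HFD, with 1 point per strain and lines joining the 37 strains on both diets, red where HFD was higher. Squares with bars give mean and SD. Most lines rise for Sparc (32 of 37) and Postn (31 of 37), while 14 of 37 rise for Fn1.

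Lox (probeset 10458894) encodes lysyl oxidase, the copper enzyme that starts the crosslinking of collagen and elastin. Its CD scores had a lowest value of 8.16 (BXD80), a median of 9.14 and a highest of 9.999 (BXD61), and its HFD scores 8.58 (BXD80), 9.25 and 10.22 (BXD79). The groups overlapped over most of their range. Lox was 0.18 units higher in HFD (SE 0.072) with a limma adjusted p of 0.0471, close to the threshold, and 24 of 37 strains were higher. The call was lost when arrays were quantile normalised again (0.16, adjusted p = 0.0651), over the brighter probesets (0.18, adjusted p = 0.056), in the methods' t-test (0.17, adjusted p = 0.0504), over the paired strains without a strain block (0.17, adjusted p = 0.0739) and with strain as a block over same-batch pairs (0.15, adjusted p = 0.0654). It held with strain as a block over all pairs (0.16, adjusted p = 0.0223) and without BXD61 (0.20, adjusted p = 0.0188).

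Pxdn (probeset 10395103) encodes peroxidasin, the peroxidase that forms the sulfilimine crosslinks of collagen IV in basement membranes. On CD the lowest, median and highest scores were 9.05 (BXD70), 9.41 and 9.82 (BXD56), and on HFD 9.16 (BXD44), 9.55 and 9.93 (BXD51). The groups overlapped, with the HFD strains shifted upward. The difference was 0.13 (SE 0.040, limma adjusted p = 0.00758), and 27 of 37 strains were higher on HFD.

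Mmp2 (probeset 10573924) encodes gelatinase A, a protease of denatured collagen and collagen IV. Scores ran from 10.25 over a median of 10.77 to 11.15 on CD and from 10.26 over 10.79 to 11.30 on HFD, so the groups coincided. BXD80 was lowest on both diets. The difference of 0.03 (95% confidence interval -0.07 to 0.13, limma adjusted p = 0.72) did not pass the test, and 22 of 37 strains were higher on HFD.

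The inhibitors Timp1 and Timp4 both bind metalloproteinases, and Timp4 is known for high expression in heart and skeletal muscle. Timp1 (probeset 10598976) was dim, below the array median on each of the 79 arrays. Its scores went from 6.81 over 7.26 to 7.86 on CD and from 6.95 over 7.39 to 7.71 on HFD, with the HFD range inside the CD range. It was 0.12 higher in HFD (SE 0.042, limma adjusted p = 0.0195), with 26 of 37 strains higher. Timp4 (probeset 10547022) ran from 10.12 over 10.77 to 11.49 on CD and from 10.40 over 10.82 to 11.44 on HFD, and the parent C57BL/6J was lowest on both diets. Its difference of 0.10 (95% confidence interval -0.03 to 0.24, limma adjusted p = 0.238) did not pass the test.

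Tgfb1 (probeset 10551185) encodes the ligand TGF-beta 1, which is secreted in a latent form and signals through SMAD2 and SMAD3. It had the narrowest spread over strains of the 9 genes, from 8.20 over 8.52 to 8.73 on CD and from 8.39 over 8.61 to 8.93 on HFD. The difference was 0.09 (SE 0.030, limma adjusted p = 0.012), and 27 of 37 strains were higher on HFD.

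The 6 genes called higher did not all rise in every strain. In 8 of 37 strains all 6 were higher on HFD, in 21 strains at least 5 were, and in BXD61, BXD63 and BXD98 2 were. Sparc and Postn were both higher in 28 strains and both lower in 2. BXD61 had the lowest difference of all strains for Sparc (-0.57), Fn1 (-1.16), Lox (-0.80) and Pxdn (-0.36), yet the highest for Timp4 (0.66). Over the 37 strains the differences of Fn1 followed those of the fibroblast markers (r = 0.86), those of Pxdn the endothelial (r = 0.72), smooth muscle and pericyte (0.70) and Schwann cell markers (0.64), and those of Sparc the collagen gene Col1a1 (r = 0.80) and the fibroblast markers (0.67), given as descriptions over the same pairs of arrays. Those of Postn followed the macrophage (0.62) and the smooth muscle and pericyte markers (0.62), and those of Lox the macrophage markers (0.55) and, inversely, the muscle fibre markers (-0.58). The fibroblast list holds Col1a1 itself and the collagen gene Col3a1, with which the Sparc differences had r = 0.66. With Pdgfra, a gene of the same list, the Sparc differences had r = -0.02 and the Fn1 differences r = 0.53.

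**Figure D3:**
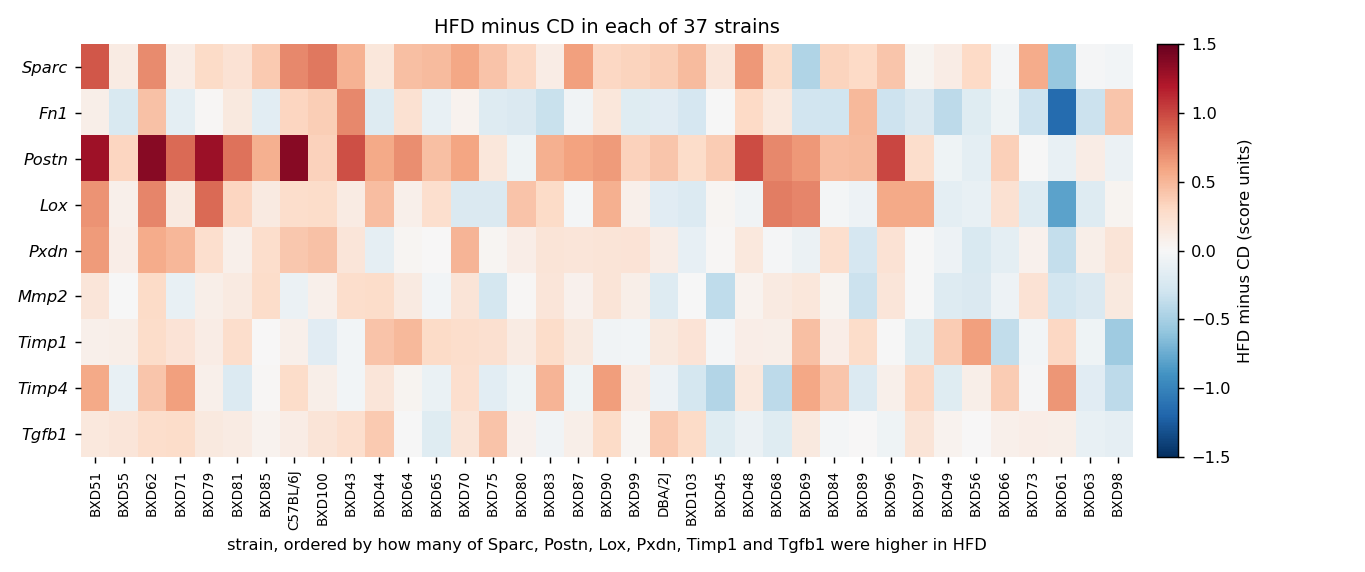
Score difference of HFD minus CD (colour, score units) for the 9 genes (rows) in each of 37 strains (columns), ordered by how many of the 6 called genes were higher on HFD. The Postn and Sparc rows are mostly red, and the BXD61 column is blue for Sparc, Fn1, Lox and Pxdn.

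To place the 9 genes in their pathway, 115 further matrix genes in 7 lists were read from the same fit. In all, 45 of 115 were called, 38 higher and 7 lower in HFD, where 38.1% of all probesets were called. With strain as a replicate block 55 were called, 44 higher and 11 lower, where 40.6% of all probesets were, 20.7% higher and 20% lower. The split moved with the scaling, to 44 higher and 4 lower with arrays centred on their medians and 31 higher and 10 lower after quantile normalisation. The collagen list had 6 of 12 genes higher and none lower, with Col4a2, a chain of basement membrane collagen IV, rising most (0.23, SE 0.031, limma adjusted p = 4.75e-09), and Col1a1 (0.08, adjusted p = 0.0939) and Col3a1 (0.07, adjusted p = 0.218), the main fibrillar collagens, not passing. The other called collagens, named after their values were seen, were Col6a1, Col6a2, Col6a3, the fibrillar chain Col5a1 (0.10, adjusted p = 0.000984) and Col4a1 (0.08, adjusted p = 0.0281). Of 28 glycoproteins and proteoglycans 9 were higher and 1 lower, with Prelp, a leucine-rich proteoglycan, rising by 0.35 units and Mgp, the calcification inhibitor matrix Gla protein, falling by 0.27 units. Of 14 genes for collagen folding and crosslinking 7 were higher and 1 lower: the collagen chaperone Serpinh1 rose by 0.17 units and Loxl3, a lysyl oxidase relative, fell by 0.12 units. Receptors had 9 of 16 higher and none lower, led by Cd36 (0.27), a thrombospondin receptor that also takes up fatty acids.

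Of 17 proteases 3 were higher and 3 lower, with the membrane-type protease Mmp15 rising by 0.14 units and Mmp16 falling by 0.20 units. Of 8 further protease inhibitors limma called 0, with 1 at an unadjusted p below 0.05. In the TGF-beta pathway 4 of 20 genes were higher and 2 lower: the signal carrier Smad2 rose by 0.13 units and the receptor Tgfbr1 fell by 0.17 units, higher on HFD in 4 of 37 strains. Smad3, named after its value was seen, was the other gene that fell (-0.12, limma adjusted p = 0.0223, higher on HFD in 9 of 37 strains). The list medians ran from -0.02 (TGF-beta pathway) to 0.10 (receptors).

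Markers of other cell types were read from the same fit, where 38.1% of all probesets were called, and their part in the rise of the matrix genes was not tested. Adipocyte markers had 6 of 8 genes higher and 1 lower, with list means of 9.27 to 10.78 on CD and 9.42 to 11.24 on HFD. Lep, the fat cell hormone leptin, was 1.58 units higher (SE 0.185, limma adjusted p = 5.02e-11) and Adipoq, adiponectin, 0.54 units higher (SE 0.141, adjusted p = 0.00143). The marker that fell was Cfd, the adipocyte protease adipsin, named here after its value was seen, which was 0.61 units lower on average (a difference of -0.61, SE 0.114, adjusted p = 1.15e-05) and higher on HFD in 6 of 37 strains. Macrophage markers had 6 of 8 higher and none lower (list means 8.17 to 8.90 on CD, 8.32 to 9.27 on HFD), endothelial markers 4 of 7 higher and none lower (9.65 to 10.41 and 9.96 to 10.51), and smooth muscle and pericyte markers 3 of 6 higher and none lower (9.47 to 10.14 and 9.61 to 10.29).

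Fibroblast markers had 1 of 10 higher and 1 lower (10.19 to 10.83 on CD, 10.16 to 10.83 on HFD), and Pdgfra, the usual fibroblast receptor marker, differed by 0.003 units (limma adjusted p = 0.959). Tendon markers had 1 of 7 higher and 2 lower (8.59 to 9.87 and 8.60 to 10.01), Schwann cell markers 2 of 6 higher and 2 lower (8.84 to 9.36 and 8.76 to 9.40), and red blood cell markers 1 of 5 higher and none lower (8.44 to 9.57 and 8.28 to 9.92). The 6 muscle fibre markers were high on every array (list means 14.47 to 14.67 on CD, 14.41 to 14.72 on HFD). Limma called 0 of them, with 0 at an unadjusted p below 0.05, and Acta1, the main actin of the fibre, differed by -0.005 units (limma adjusted p = 0.847). Over CD strains the SDs of these markers ran from 0.05 (Myh4) to 0.17 (Myh1). Whether scores this high still follow the amount of RNA was not tested. No probeset reads 0 on this scale, so no marker can be called absent.

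The members were also correlated with the mean of each marker list over strains, as a description. For Fn1 the highest r was with the fibroblast markers, 0.84 over 42 CD strains and 0.81 over 37 HFD strains, and for Mmp2 it was also the fibroblast markers, with 0.81 and 0.67. For Pxdn it was the endothelial markers on CD (0.76, and 0.47 on HFD) and the fibroblast markers on HFD (0.64, and 0.39 on CD). Postn had its highest r with the macrophage markers on CD (0.59), and on HFD 0.72 with both the macrophage and the adipocyte markers. Lox had 0.54 with the fibroblast markers on CD and 0.79 with the macrophage markers on HFD. Sparc had similar r with several lists on CD, 0.54 with fibroblast, 0.53 with adipocyte, 0.52 with smooth muscle and pericyte and 0.52 with macrophage markers, and its highest on HFD was 0.68 with the adipocyte markers. Timp1 lay between -0.11 and 0.28 with every list on CD and between -0.33 (endothelial) and 0.43 (macrophage) on HFD. Timp4 lay between -0.14 and 0.32 on CD and between -0.20 (muscle fibre) and 0.47 (smooth muscle and pericyte) on HFD. Tgfb1 lay between -0.26 and 0.47 on CD and between -0.27 (muscle fibre) and 0.42 (tendon) on HFD. A member and a list come from the same arrays, so both carry whatever that array's RNA held.

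Next, the 9 genes were compared with each other over strains within a diet. With each member in turn as covariate in a limma fit to all other probesets, a pair was called when it passed with at least 1 of its genes as covariate. This held for 8 of 36 pairs on CD and 11 of 36 on HFD, and for 6 and 9 pairs with both genes in turn. Pooled over the 9 covariates, 0.847% of probesets passed on CD and 2.47% on HFD, and with Lox alone as covariate 16.5% passed on HFD (9.37% after quantile normalisation, 0.00563% in batch 1 alone and 21.6% in batch 2 alone). There were 7 pairs called on both diets: Sparc with Fn1, Postn and Pxdn, Fn1 with Postn and Lox, Postn with Pxdn, and Lox with Mmp2. On CD 3 of these calls were lost when strains or the normalisation changed. Lox with Mmp2 was lost without both parents (adjusted p = 0.0516), over the paired strains (0.0800) and after quantile normalisation (0.0598), Sparc with Fn1 without both parents (0.0515), and Fn1 with Lox without BXD61 (0.0594).

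Each pair has a limma adjusted p for either gene as covariate, and both are given here. The highest correlations on CD were Sparc with Postn (r = 0.63, rho = 0.64, limma adjusted p = 0.00216 and 0.00414), Postn with Pxdn (r = 0.62, rho = 0.62, adjusted p = 0.00221 and 0.00245) and Fn1 with Mmp2 (r = 0.61, rho = 0.61, adjusted p = 0.00381 and 0.00705). On HFD they were Postn with Lox (r = 0.72, rho = 0.64, adjusted p = 0.000158 and 0.000252) and Lox with Mmp2 (r = 0.72, rho = 0.75, adjusted p = 0.000216 and 0.00327). Each of these had a two-sided permutation p of 3e-05 or less for r and 5e-05 or less for rho, over 100000 draws. Without the 2 strains farthest from the median of the first gene, r was 0.61, 0.55 and 0.57 on CD and 0.60 and 0.69 on HFD. For Sparc with Fn1 on HFD r was 0.62, and 0.47 without the 2 farthest strains. Without BXD61 the slope of Fn1 on Sparc was 0.59 in place of 0.65, and the pair was no longer called (the smaller adjusted p being 0.085).

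With Timp1, Timp4 and Tgfb1 as covariate almost no probeset of the table passed: 0, 1 and 0 of 35555 on CD and 0, 35 and 0 on HFD. The 35 for Timp4 became 9 without BXD63, 16 without BXD61, 1 without both parents and 144 with arrays centred on their medians. A pair could still pass with its other gene as covariate. On CD limma called 0 pairs that hold one of these 3 genes, with r from -0.12 to 0.42, while 8 of the 15 pairs among the other 6 genes were, with a median r of 0.54. On HFD 1 such pair was called, Lox with Timp4 (r = 0.43, adjusted p = 0.0465 with Lox as covariate and 0.279 with Timp4), and 10 of the 15 other pairs, with a median r of 0.58. Timp1 and Timp4, the 2 inhibitors, had r of -0.04 with each other on CD and 0.09 on HFD, and with the protease Mmp2 they had 0.05 and -0.02 on CD and 0.17 and 0.26 on HFD. The slope of a gene on another was tested for a difference between diets, and limma called 0 of 35555 probesets with any of the 9 as covariate, with 1239 to 2537 at an unadjusted p below 0.05. Within batch 1 alone limma called 0 pairs on either diet, with 13 at an unadjusted p below 0.05 on each. Within batch 2 alone it called 2 on CD and 4 on HFD. With any member as covariate, at most 0.0394% of probesets passed on CD and 0.0506% on HFD in batch 1 alone. In batch 2 alone at most 1.34% passed on CD, and on HFD 21.6% with Lox and at most 1.29% with any other member.

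**Figure D4:**
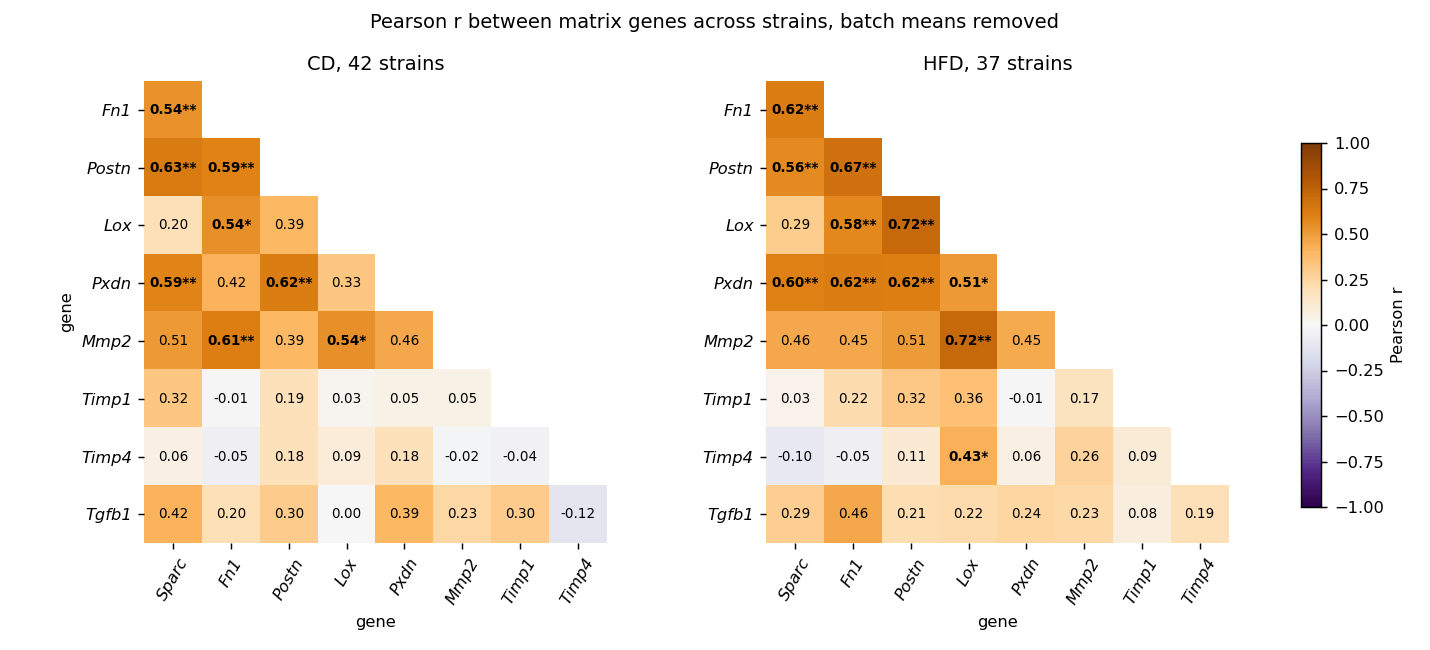
Pearson r (colour and number) between each pair of the 9 genes (both axes) over 42 CD strains (left) and 37 HFD strains (right), after batch means were removed. Bold marks called pairs, with 1 star where 1 gene of the pair passed as covariate and 2 stars where both did. The called pairs lie among Sparc, Fn1, Postn, Lox, Pxdn and Mmp2, except Lox with Timp4 on HFD.

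The genes most like each member were then sought among 22326 other symbols, by r over all 79 arrays with diet and batch means removed. Fn1 had the closest partners: Fndc1, another protein with fibronectin domains (r = 0.90), the collagen receptor Ddr2 (0.86) and the microfibril gene Fbn1 (0.86). Mmp2 was closest to Nid1 (0.80), a basement membrane linker that metalloproteinases cut, Itih5 (0.71) and the endocytic receptor Lrp1 (0.70). Sparc was closest to the mesenchymal filament gene Vim (0.80), Prkcdbp (0.75) and Cmtm3 (0.74). Postn was closest to the lysosomal lipase Lipa (0.78) and the annexins Anxa2 (0.78) and Anxa5 (0.77), Lox to the prostaglandin-degrading enzyme Hpgd (0.79), the thrombospondin Thbs2 (0.73) and Atl3 (0.72), and Pxdn to the endothelial receptor Cd93 (0.78), Ehd2 (0.77) and the calcium pump Atp2b4 (0.74).

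The other members had weaker partners. Timp4 was closest to Gpr56 (0.60), the semaphorin receptor Plxna2 (0.60) and the alcohol dehydrogenase Adh1 (0.60), and Tgfb1 to Syde1 (0.55), Igfbp7 (0.53) and Man1c1 (0.53). Timp1 was closest to Saa3 (0.50), a serum amyloid gene of inflamed tissue, Wdhd1 (0.49) and Frmpd3 (0.48). An r of at least 0.5 was reached by 197 to 452 genes for each of Sparc, Fn1, Postn, Lox, Pxdn and Mmp2, by 31 for Timp4, by 5 for Tgfb1 and by 1 for Timp1.

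Whether a strain kept its place between diets was asked by correlating CD and HFD scores over the 37 paired strains. Mmp2 kept it best (r = 0.67, rho = 0.57, permutation p = 1e-05, adjusted p = 0.000425, the p being the smallest that 100000 draws can give), followed by Timp4 (r = 0.50, rho = 0.45, permutation p = 0.00171, adjusted p = 0.0221). These 2 of 9 genes were called, where 10.6% of all probesets were, with a median r of 0.14. Both are genes that did not pass the test between diets, as is Fn1, which had r = 0.25 (permutation p = 0.133, adjusted p = 0.39). Lox had r = 0.41 (permutation p = 0.0127, adjusted p = 0.0922), and it passed without BXD61 (r = 0.50, adjusted p = 0.03), the strain highest for Lox on CD. Without that strain r of Fn1 went from 0.25 to 0.41 (permutation p = 0.0119, adjusted p = 0.0885) and that of Pxdn from 0.14 to 0.22 (adjusted p = 0.494), and neither passed. Over all 37 strains the 6 genes other than Mmp2, Timp4 and Lox had r of 0.14 to 0.28, and Sparc and Postn, the genes that rose most, had 0.17 and 0.25.

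Mmp2 had r = 0.59 and Timp4 r = 0.47 after the 2 strains farthest from the median on CD were left out. For Mmp2 r was 0.80 over the 12 strains with both arrays in batch 1, 0.66 over the 17 in batch 2 and 0.16 over the 8 in different batches. For Timp4 these were 0.46, 0.67 and 0.12. None of these 6 values passed adjustment over all probesets, by exact permutation for the 8 strains and by 100000 draws otherwise. Of the 9 genes 2, 3 and 0 had an unadjusted p below 0.05 in these sets. The Timp4 call was lost by rank (adjusted p = 0.0535) and without both parents (adjusted p = 0.0618).

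**Figure D5:**
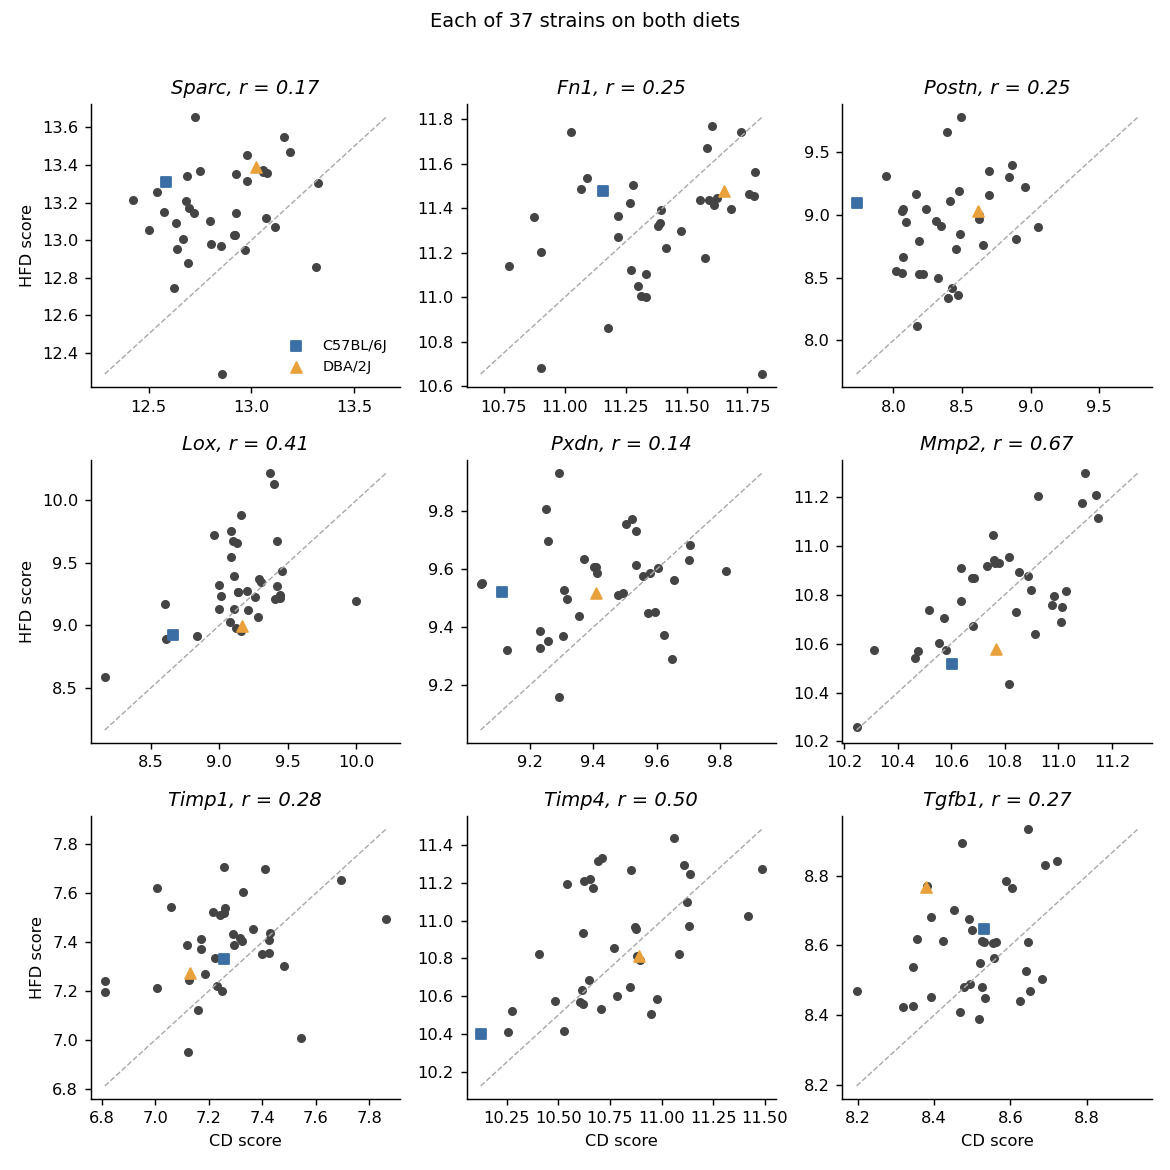
CD score (horizontal axis) against HFD score (vertical axis) of each gene in 37 strains, 1 point per strain, with the parents marked and a dashed line where both are equal. The r in each title is after batch means were removed. Mmp2 and Timp4 scatter along a rising line, while most Sparc and Postn points lie above the dashed line with little order.

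The range over strains on CD was 1.84 units for Lox, from BXD80 to BXD61. Both ends stood apart, since the next lowest strain had 8.60 and the next highest 9.51, and from the 10th to the 90th percentile of strains Lox (0.70) came after Postn (0.78), Timp4 (0.75) and Fn1 (0.72). On HFD the range was largest for Postn by both measures, 1.66 units from BXD80 to BXD79 and 0.86 between those percentiles. The full range was smallest for Tgfb1, with 0.53 on CD and 0.55 on HFD. The other full ranges on CD were 0.77 for Pxdn, 0.90 for Sparc, 0.90 for Mmp2, 1.05 for Timp1, 1.17 for Fn1, 1.32 for Postn and 1.36 for Timp4. A full range rests on 2 arrays, and from the 10th to the 90th percentile the median over the 9 genes was 0.58 on CD and 0.58 on HFD, against 1.05 and 1.04 for the full range. BXD80 had the lowest score on both diets for Lox and Mmp2, and BXD79 was within the highest 3 on HFD for Sparc, Fn1, Postn, Lox and Pxdn.

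The parents were also compared with each other. In a limma fit with 1 coefficient per strain, 0 of 9 genes differed between C57BL/6J and DBA/2J, where 1.26% of all probesets did, and 1 gene, Timp4, had an unadjusted p below 0.05. Timp4 was 0.59 units lower in C57BL/6J (95% confidence interval for C57BL/6J minus DBA/2J -1.02 to -0.16, limma adjusted p = 0.258), with 10.12 on CD and 10.40 on HFD against 10.89 and 10.81 in DBA/2J. Each parent had 1 array per diet, so this fit assumes that the parents vary as the other strains do. C57BL/6J was also the lowest of 42 strains for Postn on CD at 7.73, but on HFD at 9.09 it ranked 26 of 37 counted from the lowest.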

How the data were processed

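Quadriceps RNA of about 5 mice was pooled for each strain and diet and hybridised to 1 array, with the groups CD (42 arrays) and HFD (37 arrays) taken from the sample titles. The deposited values are scores of 35556 probesets made by the authors, with Affymetrix Expression Console named in the submitters' processing notes. Every column was found to have a mean of 8.0 and an SD of 2.0. The summarisation, log base and any correction for batch are not given in the sources used here. All 79 value columns were used.

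Differences were tested with limma 3.58.1 in R 4.3.3, with Benjamini-Hochberg adjustment over all probesets and a threshold of 0.05. The diet fit held diet and array batch, the parental fit held strain, diet and batch, and covariation fits held 1 member and batch within a diet. Correlation between diets was tested by permutation with 100000 draws on every probeset, after batch means were removed within each diet. Fits and permutations were checked on simulated data. The labels pair arrays by strain, and in 33 of 37 strains the deviations of both arrays from the diet means correlated above 0.1 (median r = 0.205, lowest -0.131). The number of arrays, and 1 pool per strain and diet, limit the precision. P-values of the main diet fit and the covariation fits are set against the spread between strains. Those of the parental fit and of fits with strain as a block are set against the spread left after the strain and diet terms.

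The 9 members and all gene lists were chosen with earlier results of these data known. Genes named beside them were the 3 most similar genes of each member, the called gene with the largest difference in each direction in each pathway list, and a few reference genes for cell types. Further called collagens, Cfd and Smad3 fall outside that rule and were named after their values were seen. Promoters were taken from RefSeq (GRCm38.p6), and 6 of the 9 members had an entry. Alternatives covered batch, strain as a block, leaving out strains, normalisation, an intensity filter, the variance trend, rank correlation and the methods' t-test.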

Additional observations from a re-analysis of the deposited data

How the results depend on the processing

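The count of called members between diets stayed at 4 to 6 of 9, all higher in HFD, except in batch 1 alone and in batch 2 alone, with 2 called in each (Postn and Sparc). It was 6 with strain as a replicate block, where Postn was 0.52 units higher, and that block changed no member's call. With the block over same-batch pairs, over the paired strains without a block and after quantile normalisation it was 5, without Lox. It was 4 over the brighter probesets, where Timp1 was not tested and Lox was lost, and 5 in the methods' t-test, where Lox was lost. Of the 115 pathway genes 45 were called, with 55 with strain as a replicate block, 50 with that block over same-batch pairs, 11 in batch 1 alone and 22 in batch 2 alone, where 40.6%, 35%, 12.6% and 24.4% of all probesets were called. Members whose strain values correlated between diets numbered 2, with 1 by Spearman rho, 1 without both parental strains, and 0 with both arrays in batch 1, 0 with both in batch 2 and 0 with arrays in different batches, where 2.22%, 3.41% and 0% of all probesets were called. The sign of r turned for Sparc (-0.4248) and Pxdn (-0.01189) with arrays in different batches, and for Timp1 (-0.002961) with both arrays in batch 2, none of which had been called. Called pairs numbered 8 on CD, with 0 in batch 1 alone and 2 in batch 2 alone, and 11 on HFD, with 0 and 4. At most 0.0506% of all probesets passed with any member as covariate in batch 1 alone. In batch 2 alone at most 1.34% passed on CD, and on HFD 21.6% with Lox and at most 1.29% with any other member. Leaving out BXD61, an alternative chosen after seeing the data, gave 7 and 10 pairs and 3 members correlated between diets, the third being Lox. The share of all probesets called between diets was slightly lower without that strain than over all strains. On HFD the share passing without BXD61 was larger with Lox and with Postn as covariate, and not larger with any other member. Counting only pairs that pass with each gene as covariate, also chosen after seeing the data, gave 6 and 9. The median strain range fell to 0.5789 on CD and 0.5792 on HFD from the 10th to the 90th percentile. Between the parents limma called 0 members under every alternative run, with 1 at an unadjusted p below 0.05 in each. A second probeset could not be tried, since each member has 1. The cause of these changes was not tested. The number of arrays was smaller within a batch, and its part was not tested either.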
